A study of Mus musculus with 32 samples.

Results

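The 39 genes described here code for inflammatory cytokines and chemokines, for enzymes and secreted proteins made under inflammation, and for subunits and inhibitors of the transcription factor NF-kB. They were chosen by their measured values, since earlier results of these data had shown many of them at high levels in 2 of the libraries, and they are 39 of the 41388 genes in the count tables. The levels in those 2 libraries are therefore given as a description with no test, and the difference between strains was tested in the other 30. Both are LG/J libraries of number 1. The SM/J libraries of number 1 stayed in, so library numbers were not balanced between strains. RNA had been sequenced from primary chondrocytes of mouse femoral heads, taken at postnatal day 21 and grown for 4 days in medium with 10% serum without passaging. The labels name no cytokine or other agent added to the cultures. The 4 groups were LG/J female, LG/J male, SM/J female and SM/J male, with 8 libraries each. LG/J is an inbred strain whose ear holes and damaged cartilage are known to close or repair well, and SM/J is one in which they do so poorly. Whether libraries of 1 group came from separate animals or cultures is not stated in the labels, so p-values measure the spread between libraries, which may be technical.

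NF-kB is held in the cytoplasm by inhibitory proteins of the IkB family, and signals from the receptors of interleukin-1, TNF and bacterial products lead to the destruction of these inhibitors. Freed NF-kB enters the nucleus and binds kappaB sites in promoters of cytokine and chemokine genes, and it also switches on the genes of its own inhibitors, which end the response. In cartilage this programme is known from arthritis, where chondrocytes given interleukin-1 make chemokines, nitric oxide, prostaglandins and proteases that break down the matrix.

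Total counts per library ran from 15840330 to 25571598. Levels below are CPM, counts scaled to the library's total, with TMM scaling, which corrects for differences in RNA composition, and they include all reads assigned to the gene. The summed CPM of 13 chondrocyte markers was 1784 in LG/J female 1 and 2868 in LG/J male 1, with 17600 to 53003 in the 14 other LG/J libraries and 11602 to 44486 in the SM/J libraries. Col2a1, the main collagen of cartilage, was at 4545 CPM or more in those 30 libraries. It was at 628 CPM in LG/J female 1 and 1377 CPM in LG/J male 1, and all 13 chondrocyte markers were lower in these 2 libraries than in every other LG/J library, so the labelled cell type was only weakly marked in them. A further 6 libraries held more than 5 CPM of a transcript of the sex they were not labelled as, taken from Xist and the Y-linked Ddx3y. They were numbers 4 and 5 of the LG/J females, 3 and 4 of the SM/J females and 2 and 3 of the SM/J males, and results that rest on them are also given without them. In 6 pairs of libraries of 1 group the counts differed by 3.97 to 4.89 times the sampling noise, against 6.02 for the next pair and a median of 16.4 over 112 pairs. The members of these pairs were kept as separate libraries, and were also summed in an alternative. In such bulk samples, fewer cells of a type and less RNA per cell cannot be told apart.

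Promoters are shown because kappaB sites are the letters through which NF-kB is known to act, and 3 neighbouring chemokine genes carry the same one. RefSeq promoter windows of build GRCm38.p6, from 250 bases before to 50 after the start of transcription, were found for 28 of the 39 genes. The kappaB motif was found, on either strand, in 12 of these 28 windows (42.9%) and in 4.51% of all 32851 windows of the same length. The AP-1 motif TGANTCA was found in 8 (28.6%) and in 7.81% of all windows, and the C/EBP motif TTNNGCAA in 7 (25%) and in 10.8% of all windows. Overlapping matches were merged into 1 site. A match describes the letters and is not evidence of binding, and the genes were chosen partly as known NF-kB targets. The letters are those of the reference build, and the sequences of LG/J and SM/J were not examined. The window of Ptges lay 26566 bases from the start of that gene in the count tables. The windows below belong to 3 CXC chemokine genes at chr5:90890995-90891294 (plus strand), chr5:90903649-90903948 (plus) and chr5:90785851-90786150 (plus), to the chemokine gene Cxcl10 at chr5:92348840-92349139 (minus), and to Nfkbia, which codes for an inhibitor of NF-kB, at chr12:55492598-55492897 (minus). They read 5′ to 3′ along the gene, and capitals mark the kappaB matches.
Cxcl1: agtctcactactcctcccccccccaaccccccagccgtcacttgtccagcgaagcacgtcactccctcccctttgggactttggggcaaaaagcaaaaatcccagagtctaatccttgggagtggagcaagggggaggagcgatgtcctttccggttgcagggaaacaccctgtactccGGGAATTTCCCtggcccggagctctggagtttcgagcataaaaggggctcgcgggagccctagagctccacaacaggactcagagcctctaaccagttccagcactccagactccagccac
Cxcl2: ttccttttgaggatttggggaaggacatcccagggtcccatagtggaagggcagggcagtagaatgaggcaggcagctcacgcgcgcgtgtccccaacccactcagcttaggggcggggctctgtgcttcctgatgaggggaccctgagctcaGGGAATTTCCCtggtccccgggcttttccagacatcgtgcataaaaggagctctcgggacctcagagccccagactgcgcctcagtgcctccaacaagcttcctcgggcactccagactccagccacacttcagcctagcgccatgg
Cxcl3: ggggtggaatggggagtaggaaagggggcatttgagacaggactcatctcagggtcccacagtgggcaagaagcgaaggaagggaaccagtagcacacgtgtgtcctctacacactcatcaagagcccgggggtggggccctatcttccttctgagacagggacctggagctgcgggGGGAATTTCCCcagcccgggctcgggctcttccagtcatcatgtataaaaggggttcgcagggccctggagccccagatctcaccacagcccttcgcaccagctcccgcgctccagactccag
Cxcl10: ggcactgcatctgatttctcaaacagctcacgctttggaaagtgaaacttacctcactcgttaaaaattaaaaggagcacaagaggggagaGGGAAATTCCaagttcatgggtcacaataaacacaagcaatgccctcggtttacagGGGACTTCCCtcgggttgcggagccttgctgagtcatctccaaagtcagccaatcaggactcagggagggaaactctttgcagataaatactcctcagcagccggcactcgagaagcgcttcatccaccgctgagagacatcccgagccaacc
Nfkbia: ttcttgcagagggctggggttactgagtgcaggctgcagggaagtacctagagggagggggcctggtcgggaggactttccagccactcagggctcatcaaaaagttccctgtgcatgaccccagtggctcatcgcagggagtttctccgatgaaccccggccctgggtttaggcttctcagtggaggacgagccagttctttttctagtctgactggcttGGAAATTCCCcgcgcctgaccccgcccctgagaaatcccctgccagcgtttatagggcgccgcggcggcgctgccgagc
Cxcl1, Cxcl2 and Cxcl3 carried the same 11 letters, GGGAATTTCCC, with the first base at -71, -97 and -73 from the start of transcription. Cxcl10 had 2 sites, with first bases at -159 and -103, and Nfkbia had 1 at -29. The other windows with a match were those of Il6, Ccl20, Chil1, Tnfaip3, Nfkb2, Sod2 and Steap4.

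The level of the whole group in a library was summarised as the mean over the 39 genes of log2 CPM. It was 6.28 in LG/J female 1 and 6.08 in LG/J male 1. In the 14 other LG/J libraries the lowest was 1.35, the median 1.94 and the highest 3.33, and in the 16 SM/J libraries the lowest was 1.99, the median 2.60 and the highest 4.30. These 2 libraries thus stood above all others, and the ranges of the other LG/J and the SM/J libraries overlapped. A mean above 3 was reached by 2 of the 14 LG/J libraries, males 2 and 3, and by 6 of the 16 SM/J libraries. The 4 SM/J libraries with transcripts of both sexes were all among these 6, at 3.46 to 4.30, and the 12 other SM/J libraries lay between 1.99 and 3.68. SM/J female 1 and male 1, at 3.68 and 3.36, completed the 6. LG/J males 2 and 3 formed a close pair, as did SM/J females 3 and 4, so their values may not be independent. Each library above 3, in either strain, had a number from 1 to 4. The number of the 39 genes at 1 CPM or more was 36 in LG/J female 1 and 35 in LG/J male 1, against 24 to 31 in the other LG/J libraries and 27 to 33 in the SM/J libraries.

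**Figure D1:**
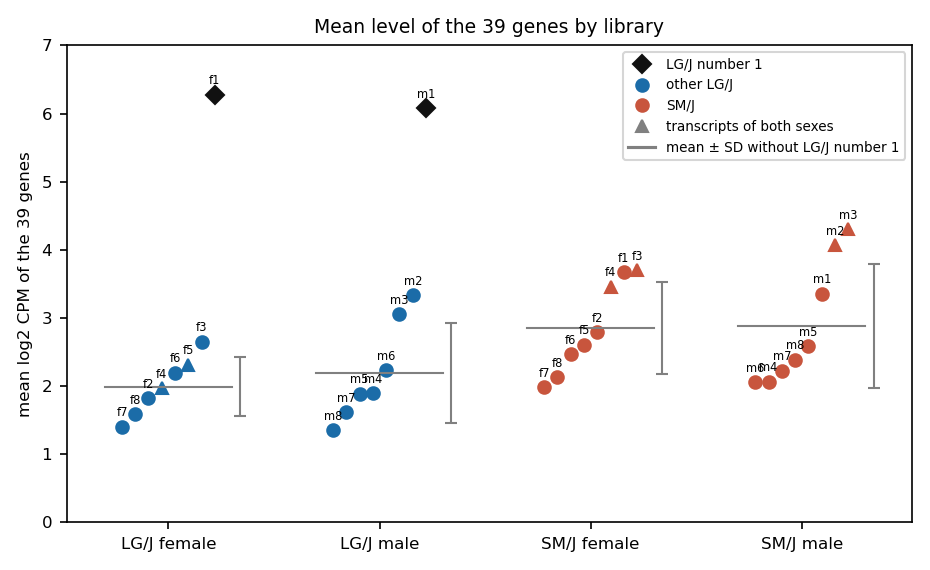
Mean log2 CPM of the 39 genes in each of the 32 libraries (points, labelled by sex and number), by strain and sex, with the mean ± SD without LG/J number 1. The black diamonds at 6.28 and 6.08 are LG/J female 1 and male 1, and triangles mark libraries with transcripts of both sexes, which hold 4 of the 6 SM/J values above 3.

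**Figure D2:**
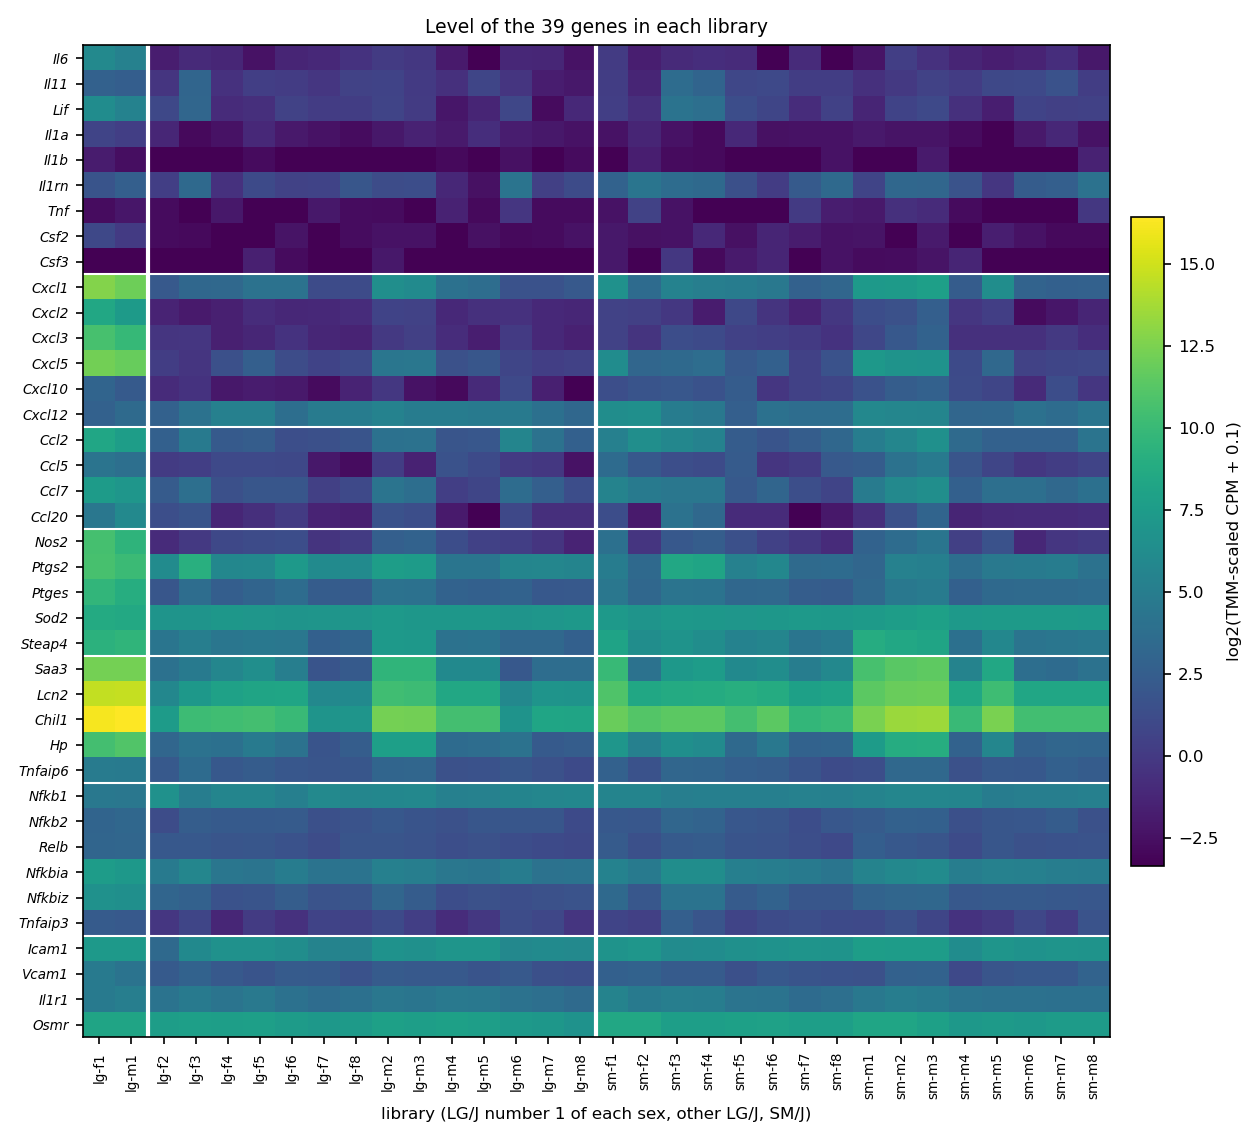
Level of each of the 39 genes (rows, grouped by role) in each library (columns), as log2 of TMM-scaled CPM plus 0.1. The 2 columns on the left, LG/J female 1 and male 1, are brightest in the chemokine, enzyme and secreted protein rows, and SM/J males 1, 2 and 3 are the brightest of the others in Saa3, Lcn2 and Chil1.

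Between strains, many of these genes were lower in LG/J than in SM/J cultures, among them most of the chemokines, lipocalin 2 and NF-kB inhibitors. With edgeR's quasi-likelihood test over the 14 LG/J and 16 SM/J libraries, 34 of the 39 genes had enough counts to be tested, and 18 were called at an adjusted p under 0.05, where 32.2% of all 16229 genes tested were called. Of the 18, 17 were lower in LG/J (15.1% of all genes were) and 1 was higher (17.1% of all genes were). The median log2 fold change, LG/J over SM/J, was -0.87 over the 34 genes and -0.0049 over all genes. With library size as the only scaling 16 were called, 15 lower and 1 higher, and the split over all genes was 3391 higher and 1871 lower, against 2772 higher and 2452 lower with TMM. None of the 39 genes separated the strains without overlap, where 3.11% of all genes tested did. The 16 genes not called comprised 15 with a negative and 1 with a positive estimate. The genes had been chosen with these results known, so the counts describe the group and are not independent evidence of its direction.

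Fewer genes were called after leaving out the 6 libraries that held transcripts of both sexes. Then 8 of 33 genes tested were called, 6 lower and 2 higher, where 25.1% of all genes were called, 10.8% lower and 14.4% higher. The median log2 fold change over these 33 genes was -0.45, and 7 of the 18 calls held. With each close pair summed to 1 library, 11 of 35 genes were called, all lower, where 23.7% of all genes were called, 10.5% lower and 13.2% higher. With LG/J female 1 and male 1 put back, 8 of 34 genes were called, all higher, where 29.9% were called, 16.4% higher and 13.5% lower, so that these 2 libraries turned the direction of the group. Leaving out 1 library at a time gave 12 to 21 calls among the 39 genes. With limma voom and quality weights, the calls of Cxcl1 (-1.29), Cxcl2 (-0.48), Cxcl5 (-1.15), Ccl2 (-1.01) and Saa3 (-1.53) were lost (adjusted p from 0.151 to 0.483). Without a filter on low counts, those of Cxcl1, Ccl2, Saa3, Chil1 and Nfkbiz were lost, at -1.70, -1.43, -2.30, -1.44 and -0.69 (adjusted p from 0.072 to 0.089).

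**Figure D3:**
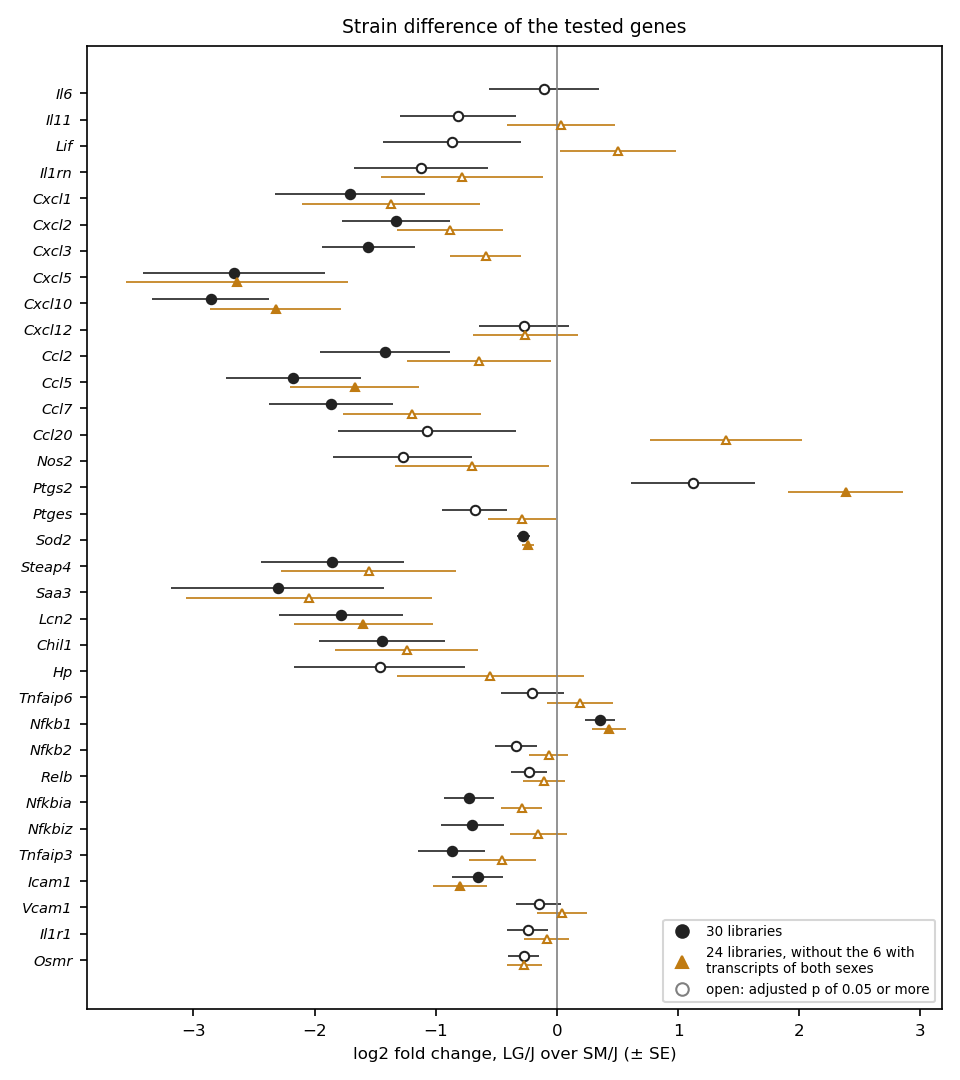
Log2 fold change of each tested gene, LG/J over SM/J, ± its standard error, in the 30 libraries (black circles) and after leaving out 6 libraries that held transcripts of both sexes (orange triangles). Filled symbols are called, and Ptgs2 and Nfkb1 are the filled triangles right of 0.

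Of the CXC chemokines, which draw neutrophils and lymphocytes, Cxcl1, Cxcl2, Cxcl3, Cxcl5 and Cxcl10 were lower in LG/J and Cxcl12 was not called. Cxcl10, a ligand of the T-cell receptor CXCR3 known as an interferon target, ran from 0 to 1.96 CPM with a median of 0.215 in LG/J, and from 0.399 to 6.87 CPM with a median of 2.44 in SM/J. Most LG/J libraries lay under the lowest SM/J library, and 1 of them, LG/J male 8, had no Cxcl10 read, which allows up to 3. The log2 fold change of Cxcl10 was -2.86 ± 0.48 (adjusted p = 2.67e-05), and it held without the 6 libraries at -2.32 (adjusted p = 0.00214). Its gene overlaps Art3 on the other strand, and without a known strand setting the reads of the overlap cannot be assigned to either.

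Cxcl5, a neutrophil attractant, ran from 0.741 to 22.5 CPM with a median of 2.11 in LG/J, and from 1.33 to 144 CPM with a median of 7.94 in SM/J. The high values were those of LG/J males 2 and 3 in LG/J, and of males 1, 2 and 3 and female 1 in SM/J. Its log2 fold change was -2.66 ± 0.75 (adjusted p = 0.00686), and -2.64 without the 6 libraries (adjusted p = 0.0387). It was -2.07 without SM/J female 1 (adjusted p = 0.0224), and was not called with voom and quality weights (-1.15, adjusted p = 0.254). With the library number as a block it was -1.32 and not called either (adjusted p = 0.0617).

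Cxcl1, the mouse KC chemokine, ran from 2.12 to 84.1 CPM with a median of 9.93 in LG/J, and from 5.23 to 222 CPM with a median of 27.1 in SM/J. Within each strain, the same libraries as for Cxcl5 were the highest. The log2 fold change of Cxcl1 was -1.71 ± 0.62 (adjusted p = 0.0348), and it was lost without the 6 libraries (-1.37, adjusted p = 0.193) and with close pairs summed (-1.95, adjusted p = 0.0555), and was called in 20 of 30 fits that left out 1 library.

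Cxcl2, also called MIP-2, ran from 0.165 to 1.44 CPM with a median of 0.389 in LG/J, and from 0.0499 to 6.21 CPM with a median of 0.826 in SM/J. Its lowest library was an SM/J one, SM/J male 6, and its 3 highest were SM/J males 3, 2 and 1. Cxcl3, which binds the same receptor, ran from 0.223 to 1.21 CPM with a median of 0.433 in LG/J, and from 0.497 to 7.08 CPM with a median of 1.05 in SM/J. The log2 fold change of Cxcl2 was -1.33 ± 0.45 (adjusted p = 0.0227) and that of Cxcl3 was -1.56 ± 0.38 (adjusted p = 0.00204). Without the 6 libraries neither was called, at -0.88 and -0.59 (adjusted p = 0.151 and 0.156). Cxcl2 was not called either without SM/J male 3 (adjusted p = 0.0641) or with voom and quality weights (-0.48, adjusted p = 0.483). A Cxcl2 transcript shares 90.7% of 550 bases with Cxcl3, so reads of these 2 genes could have been split between them. Cxcl12, a chemokine of stem cells and stroma, had a median of 28.9 CPM in LG/J, against 18.1 in SM/J. Its log2 fold change, which compares group means, was -0.27 ± 0.37 and was not called (adjusted p = 0.625). The highest Cxcl12 values, 88.6 and 79.9 CPM, were those of SM/J females 2 and 1.

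The CC chemokines Ccl2, Ccl5 and Ccl7, which draw monocytes and T cells, were lower in LG/J, and Ccl20, which draws cells with the receptor CCR6, was not called. Ccl5, also called RANTES, ran from 0.0572 to 3.03 CPM with a median of 1.04 in LG/J, and from 0.707 to 27.0 CPM with a median of 3.05 in SM/J. SM/J males 3 and 2 gave the highest values, and the ranges overlapped. Its log2 fold change was -2.17 ± 0.55 (adjusted p = 0.003), and it held without the 6 libraries (-1.67, adjusted p = 0.0233). Ccl7 ran from 1.14 to 19.0 CPM with a median of 3.8 in LG/J, and from 1.52 to 87.5 CPM with a median of 15.2 in SM/J, with a log2 fold change of -1.86 ± 0.51 (adjusted p = 0.0058), and was not called without the 6 libraries (-1.20, adjusted p = 0.136).

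Ccl2, the main attractant of monocytes, ran from 2.57 to 50.5 CPM with a median of 6.02 in LG/J, and from 3.40 to 97.4 CPM with a median of 15.4 in SM/J. Its highest LG/J library was male 6, which also had the highest summed level of 13 macrophage markers in LG/J (1664 CPM, against a median of 63.3). The log2 fold change of Ccl2 was -1.42 ± 0.54 (adjusted p = 0.0431), and it was lost without the 6 libraries (-0.64, adjusted p = 0.485) and with close pairs summed (-1.21, adjusted p = 0.188), and was called in 11 of 30 fits that left out 1 library. Ccl20 had a median of 0.532 CPM in LG/J, against 0.448 in SM/J and reached 17.1 CPM in SM/J female 3, and its log2 fold change of -1.07 ± 0.73 (adjusted p = 0.288) became 1.39 without the 6 libraries (adjusted p = 0.112).

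Among the secreted proteins, Lcn2, Saa3 and Chil1 were lower in LG/J, and Hp and Tnfaip6 were not called. Lcn2, lipocalin 2, which binds iron-carrying molecules of bacteria, ran from 57.0 to 1296 CPM with a median of 199 in LG/J, and from 233 to 4116 CPM with a median of 437 in SM/J. Within each strain, the libraries with the most Lcn2 were those with the most Cxcl1, LG/J males 2 and 3 and SM/J males 3, 2 and 1 and female 1. The log2 fold change of Lcn2 was -1.78 ± 0.51 (adjusted p = 0.00756), and it held without the 6 libraries (-1.60, adjusted p = 0.0468). Saa3, an acute-phase serum amyloid, ran from 3.32 to 786 CPM with a median of 30.6 in LG/J, and from 11.6 to 2961 CPM with a median of 72.9 in SM/J. Its log2 fold change of -2.31 ± 0.88 (adjusted p = 0.0436) was about as large without the 6 libraries and with close pairs summed, at -2.05 and -2.70, but no longer called (adjusted p = 0.155 and 0.064). It was called in 13 of 30 fits that left out 1 library, and was -1.68 without SM/J female 1 (adjusted p = 0.124). Chil1, a chitinase-like protein known as YKL-40 in humans and made by chondrocytes, ran from 110 to 4985 CPM with a median of 1099 in LG/J, and from 847 to 11712 CPM with a median of 2487 in SM/J. Its log2 fold change of -1.44 ± 0.52 (adjusted p = 0.0338) was -1.24 and no longer called without the 6 libraries (adjusted p = 0.139), and was called in 20 of 30 fits that left out 1 library. Hp, haptoglobin, had -1.46 ± 0.71 (adjusted p = 0.118) and Tnfaip6, a hyaluronan-binding protein, had -0.20 ± 0.26 (adjusted p = 0.595).

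Of the enzymes, Sod2 and Steap4 were lower in LG/J, while Ptgs2, the cyclooxygenase that begins prostaglandin synthesis, was the exception in direction. Ptgs2 ran from 20.3 to 545 CPM with a median of 65.4 in LG/J, and from 8.98 to 366 CPM with a median of 29.6 in SM/J. LG/J female 3 was the highest of all 30 libraries, and SM/J females 3 and 4, which carry transcripts of both sexes, were far above the rest of SM/J. Its log2 fold change was 1.12 ± 0.51 and was not called (adjusted p = 0.0956), but without the 6 libraries it was 2.38 (adjusted p = 0.000602). It was also called without SM/J female 3 alone (adjusted p = 0.0262), without SM/J female 4 alone and with voom and quality weights (1.32, adjusted p = 0.0122). Ptges, which makes prostaglandin E2 from the product of Ptgs2, had medians of 7.03 CPM in LG/J, against 10.8 in SM/J, and a log2 fold change of -0.68 ± 0.27 (adjusted p = 0.0523). Nos2, the inducible nitric oxide synthase, ran from 0.294 to 7.27 CPM in LG/J libraries and from 0.349 to 20.0 in SM/J libraries, with -1.27 ± 0.58 (adjusted p = 0.093).

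Sod2, the mitochondrial superoxide dismutase, differed little. It ran from 117 to 154 CPM with a median of 134 in LG/J, and from 116 to 240 CPM with a median of 158 in SM/J. The log2 fold change was -0.28 ± 0.05 (adjusted p = 0.000104), and it was -0.24 without the 6 libraries (adjusted p = 0.00043). It was -0.40 in males and -0.16 in females, where it was not called (adjusted p = 0.163). A Sod2 transcript shares 98.3% of 3110 bases with an Rps6ka2 transcript, so the counts of Sod2 are uncertain. Steap4, a metalloreductase of iron and copper, ran from 6.64 to 166 CPM with a median of 18.8 in LG/J, and from 15.6 to 476 CPM with a median of 53.2 in SM/J, with a log2 fold change of -1.85 ± 0.59 (adjusted p = 0.0165), and -1.55 and no longer called without the 6 libraries (adjusted p = 0.127).

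**Figure D4:**
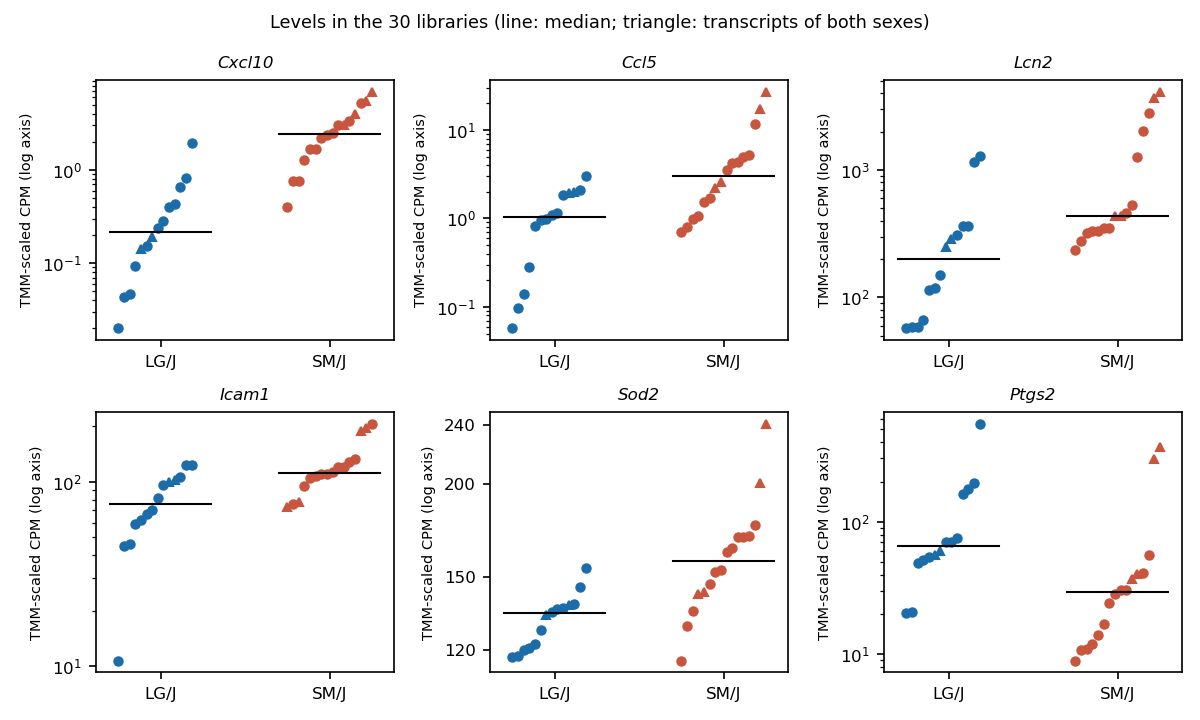
Level of 6 genes in each of the 14 LG/J (blue) and 16 SM/J (red) libraries, on log axes, with the median as a line and triangles for libraries with transcripts of both sexes. The ranges overlap in each gene, Cxcl10, Ccl5, Lcn2, Icam1 and Sod2 have the lower median in LG/J and Ptgs2 the higher, and 1 LG/J library with no Cxcl10 read is drawn at the lower edge.

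Genes of the NF-kB system moved in both directions. Nfkbia, the inhibitor IkB alpha and itself an NF-kB target, ran from 17.4 to 53.7 CPM with a median of 22.1 in LG/J, and from 20.5 to 80.6 CPM with a median of 37.7 in SM/J. Its log2 fold change was -0.73 ± 0.20 (adjusted p = 0.00641), and it was -0.29 without the 6 libraries (adjusted p = 0.234) and -0.61 with close pairs summed (adjusted p = 0.0524). Tnfaip3, which codes for the ubiquitin-editing enzyme A20 that shuts off NF-kB signalling, ran from 0.331 to 2.32 CPM with a median of 1.06 in LG/J, and from 0.661 to 6.24 CPM with a median of 1.82 in SM/J. It had -0.87 ± 0.28 (adjusted p = 0.0163), lost without the 6 libraries (-0.45, adjusted p = 0.258) and with close pairs summed (adjusted p = 0.0702). Nfkbiz, a nuclear IkB protein that acts with NF-kB, had medians of 3.33 CPM in LG/J, against 4.86 in SM/J and a log2 fold change of -0.70 ± 0.26 (adjusted p = 0.0405), lost without the 6 libraries (-0.15, adjusted p = 0.704) and with close pairs summed (-0.59, adjusted p = 0.146), and called in 15 of 30 fits that left out 1 library.

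Nfkb1, the precursor of the p50 subunit, was the gene called higher in LG/J. It ran from 32.3 to 99.8 CPM with a median of 51.5 in LG/J, and from 30.4 to 54.3 CPM with a median of 38.5 in SM/J. LG/J female 2 was the highest of all, and the other LG/J libraries reached 61.1 CPM. The log2 fold change was 0.36 ± 0.12 (adjusted p = 0.023), and it held without the 6 libraries (0.43, adjusted p = 0.0278) but not with close pairs summed (0.35, adjusted p = 0.091). Nfkb2 and Relb, the subunits of the alternative pathway, had -0.34 ± 0.17 and -0.23 ± 0.15 and were not called (adjusted p = 0.147 and 0.255). Nfkb2 overlaps Psd on the other strand.

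Icam1, an adhesion molecule that binds leukocyte integrins, ran from 10.8 to 124 CPM with a median of 76.1 in LG/J, and from 73.0 to 206 CPM with a median of 111 in SM/J. Its lowest library was LG/J female 2, and the log2 fold change was -0.65 ± 0.21 (adjusted p = 0.017), and -0.80 without the 6 libraries (adjusted p = 0.0102). Vcam1, the other adhesion molecule, and the receptors Il1r1 and Osmr, which bind interleukin-1 and oncostatin M, were not called, at -0.15 ± 0.18, -0.24 ± 0.17 and -0.27 ± 0.13 (adjusted p = 0.581, 0.302 and 0.107). Over all members, 5 of the 18 calls held in each of 9 other settings of the 30 libraries: Cxcl10, Ccl5, Lcn2, Icam1 and Sod2.

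The cytokines themselves were at low levels in the 30 libraries, and none was called in the test over all 30. Il6, which signals through gp130, ran from 0 to 0.96 CPM in LG/J libraries and from 0 to 1.16 in SM/J libraries, with a log2 fold change of -0.10 ± 0.45 (adjusted p = 0.893). Lif and Il11, of the same family, had medians of 1.00 and 0.840 CPM in LG/J and 1.32 and 1.27 CPM in SM/J, with -0.86 ± 0.57 and -0.82 ± 0.48 (adjusted p = 0.264 and 0.202). Without LG/J female 3 both were called, at -1.38 and -1.37 (adjusted p = 0.0492 and 0.0143). Both estimates turned positive without the 6 libraries, at 0.50 for Lif and 0.036 for Il11, and neither was called (adjusted p = 0.498 and 0.970). Il1rn, which codes for the antagonist of the interleukin-1 receptor, ran from 0.0890 to 19.2 CPM in LG/J libraries and from 0.787 to 20.4 in SM/J libraries, with -1.12 ± 0.55 (adjusted p = 0.122). It was called lower without LG/J male 6 (-1.87, adjusted p = 0.00431), without LG/J female 3 (-1.52, adjusted p = 0.033) and with voom and quality weights (-1.72, adjusted p = 0.0237). With the library number as a block it was called too (-1.59, adjusted p = 0.0369). It was not called without the 6 libraries (-0.78, adjusted p = 0.443) or with close pairs summed (-0.85, adjusted p = 0.376). The highest Il1rn libraries were LG/J male 6 and SM/J female 2, which also had the highest macrophage marker sums of their strains, at 1664 and 1063 CPM, and the part of such cells was not tested. Il1a, Il1b, Tnf, Csf2 and Csf3, which code for interleukin-1, TNF and the colony-stimulating factors, had too few counts to be tested, with a highest value in the 30 libraries of 1.35 CPM, of Tnf in SM/J female 2. Il1a overlaps Gm14023, Il1b overlaps Il1bos and Csf2 overlaps Gm12223, each on the other strand.

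Within sexes fewer genes passed. In females 2 of the 34 genes were called, where 15.9% of all genes were, Cxcl10 at -3.27 ± 0.71 and Tnfaip3 at -1.36 ± 0.40 (adjusted p = 0.00119 and 0.0164). In males 5 were called, where 24.7% of all genes were: Cxcl3 at -1.66 ± 0.54, Cxcl10 at -2.44 ± 0.66, Ccl5 at -2.57 ± 0.79, Nfkbia at -0.77 ± 0.29 and Sod2 at -0.40 ± 0.07 (adjusted p = 0.0214, 0.00649, 0.0166, 0.0486 and 0.000134). The test of whether the strain difference itself differed between sexes called none of the 34 genes, and 1 of all genes (0.00616%). Sod2 was the 1 of the 34 at an unadjusted p under 0.05 in that test (0.0267). Between males and females over both strains, 2 of the 34 genes were called, where 5.68% of all genes were: Lif at -1.90 ± 0.57 (adjusted p = 0.0469) and Sod2 at 0.26 ± 0.05 (adjusted p = 0.00646), male over female. Both were lost with close pairs summed, where 28 genes in all were called. Of 33 genes tested between sexes without the 6 libraries, 1 was called higher in males and 0 lower. Over all 16536 genes tested there, 435 were higher and 538 lower. The call of Lif as lower was thus lost. The highest Lif values in the libraries tested, 18.5 and 14.7 CPM, came from SM/J females among those 6.

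In LG/J female 1 and male 1, 7 of the 10 chemokines, all 5 enzymes and all 5 secreted proteins were above every other library, where 9.85% of all genes were. Both libraries were above all 14 other LG/J libraries in 31 of the 39 genes (14.6% of 16136 genes were), above all 30 other libraries in 25 (9.85%), and below all 14 in 1 (15.8%). Since these libraries were chosen by such values, the counts are a description. Il6, Cxcl1, Cxcl2, Cxcl3, Cxcl5, Nos2, Ptges, Lcn2 and Chil1 were in both at 10 times the highest of the other LG/J libraries or more. How many of all genes reached that limit was not counted. Spp1, the osteopontin gene, took 14.6% of all counts in LG/J female 1 and 13.3% in LG/J male 1, and 0.134 to 1.34% in the other LG/J libraries.

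**Figure D5:**
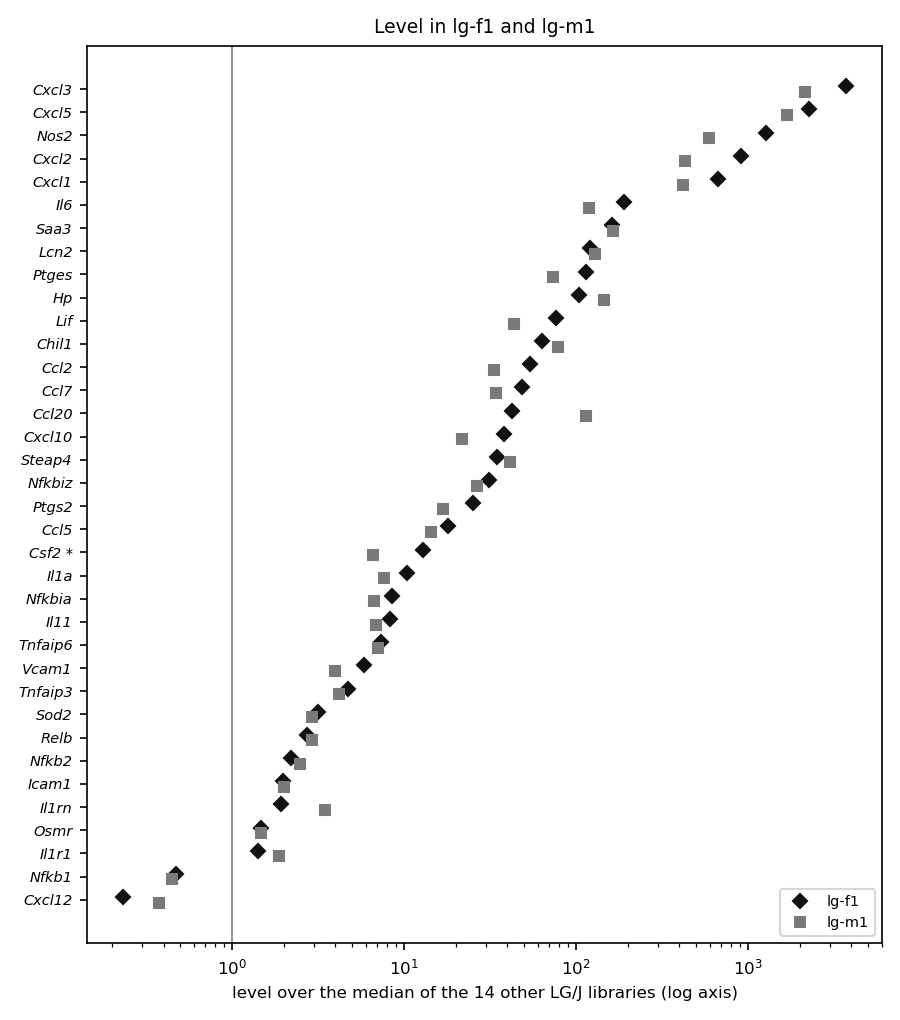
Level of 36 of the 39 genes in LG/J female 1 (diamonds) and LG/J male 1 (squares), divided by the median of the 14 other LG/J libraries, on a log axis. Cxcl3 is the highest, at 3719 and 2144, and Cxcl12 and Nfkb1 lie left of 1; an asterisk marks a lower bound, and Il1b, Csf3 and Tnf are left out because they were at or under 3 counts in these 2 libraries.

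The largest ratios to the LG/J median were those of Cxcl3 and Cxcl5, followed by the enzyme Nos2 and by Cxcl2 and Cxcl1. Cxcl1 was at 6696 CPM in LG/J female 1 and 4166 in male 1, Cxcl5 at 4808 and 3557, Cxcl3 at 1609 and 928 and Cxcl2 at 356 and 168, while the highest of the other LG/J libraries were 84.1, 22.5, 1.21 and 1.44 CPM. All 4 exceeded the highest SM/J library too. Ccl2 was at 327 and 200 CPM, Ccl7 at 185 and 130 and Ccl20 at 22.7 and 61.3. Cxcl10, at 8.18 and 4.66 CPM, and Ccl5, at 18.8 and 15 CPM, exceeded the other LG/J libraries but not the highest SM/J library. Cxcl12 was at 6.77 and 11 CPM, whereas the other LG/J libraries held 6.83 to 42.7 CPM.

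Among the enzymes, Nos2 was at 1574 CPM in LG/J female 1 and 739 in male 1, against at most 7.27 CPM in the other LG/J libraries. Ptgs2 was at 1639 and 1096, Ptges at 809 and 514 and Steap4 at 655 and 777. Sod2, at 423 and 393, was 3.15 and 2.93 times the LG/J median. The secreted proteins Chil1 (70032 and 86699), Lcn2 (24178 and 25542), Saa3 (4973 and 5029), Hp (1481 and 2079) and Tnfaip6 (29.0 and 27.6) were above every other library. Per kilobase of gene, in CPM, Chil1 came first of the 39 genes in LG/J female 1, male 1, the median of the other LG/J libraries and the median of SM/J libraries alike, at 24976, 30920, 392 and 887.

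The cytokine genes were uneven. Il6 was at 63.7 CPM in LG/J female 1 and 39.7 in male 1, against at most 0.96 in the other LG/J libraries, and Lif was at 77.2 and 44.0. Il11 was at 6.95 and 5.80 CPM, within the range of the other LG/J libraries, and Il1rn at 3.38 and 6.11 likewise. Il1a was at 1.54 and 1.13 and Csf2 at 1.85 and 0.945, while Il1b had 3 and 1 reads, Tnf 1 and 2, and Csf3 none in either, which allows up to 3. Neither Tnf nor Il1b was above the highest of the other libraries. Among NF-kB genes, Nfkbia was at 188 and 147 CPM, Nfkbiz at 103 and 88.8, Tnfaip3 at 4.98 and 4.41, Nfkb2 at 8.24 and 9.33 and Relb at 8.55 and 9.14. Nfkb1 was the gene below all 14, at 24.3 and 23.1 CPM. Vcam1 (26.3 and 17.9), Icam1 (151 and 152) and Osmr (298 in each) were above the other LG/J libraries, and Il1r1 (26.5 and 35.3) was not in both.

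The wider lists of the pathway, chosen with earlier results of these data known, showed the following beside their strain tests, where 15.1% of all genes tested were lower and 17.1% higher. Of 16 tested receptors of the member cytokines, 10 were lower and 1 higher, with a list median of -0.52. The higher one was Lifr, the receptor of LIF, at 0.78 ± 0.10 (adjusted p = 1.97e-07), and among the lower were Cxcr4 at -1.80 ± 0.38, Il1r2 at -1.63 ± 0.37 and Tnfrsf1a at -0.45 ± 0.09 (adjusted p = 0.000407, 0.000907 and 0.000294). Of 22 Toll-like receptors and adaptors, 5 were lower and 3 higher (median -0.01), near the shares over all genes. Irak4, a kinase next to the interleukin-1 receptor, ran from 19.8 to 34.1 CPM in LG/J libraries and from 63.0 to 96.7 in SM/J libraries, so that the strains did not overlap, with -1.68 ± 0.05 (adjusted p = 1.21e-21). The adaptor Myd88 was lower at -0.29 ± 0.07, while the RNA sensor Tlr3 at 0.81 ± 0.13 and the ubiquitin ligase Traf6 at 0.53 ± 0.09 were higher (adjusted p = 0.00122, 1.92e-05 and 1.55e-05). Of 10 further NF-kB genes 3 were lower and none higher (median -0.16): the inhibitor Nfkbib at -0.31 ± 0.06, the kinase Map3k8 at -0.42 ± 0.13 and the nuclear IkB protein Bcl3 at -0.70 ± 0.24 (adjusted p = 6.64e-05, 0.013 and 0.0232). Rela, the main activating subunit, had -0.06 ± 0.04 and was not called (adjusted p = 0.351). Of 15 negative regulators 2 were lower, near the share over all genes, and 1 higher (median 0.03), the lower ones being the RNase Zc3h12a at -1.04 ± 0.31 and Rnf11 at -0.28 ± 0.09 and the higher one the ubiquitin ligase Itch at 0.31 ± 0.07 (adjusted p = 0.00974, 0.0202 and 0.00133).

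Of 12 genes of the JAK-STAT arm, 4 were lower and 3 higher (median -0.39), where 15.1% and 17.1% of all genes were: Stat3, the main factor of IL-6 signalling, was higher at 0.58 ± 0.06, while the kinase gene Pim1, a known target of Stat3, and the AP-1 gene Fosl2 were lower at -1.16 ± 0.16 and -0.88 ± 0.13 (adjusted p = 1e-08, 9.88e-07 and 2.02e-06). Of 5 matrix proteases, 2 were lower, the aggrecanases Adamts4 at -1.09 ± 0.26 and Adamts5 at -0.83 ± 0.26 (adjusted p = 0.00182 and 0.0165), with a list median of -0.83. After leaving out the 6 libraries, 10.8% of all genes were lower and 14.4% higher. Then 8 of 17 receptors were lower and 1 higher, 4 of 22 Toll-like receptors and adaptors lower and 4 higher, and 1 of 11 NF-kB genes lower and 0 higher. The negative regulators had 0 of 15 lower and 2 higher, the JAK-STAT arm 2 of 12 lower and 2 higher, and the proteases 0 of 5 in either direction. In LG/J female 1 and male 1, 6 of the 7 proteases of the full list were above the 14 other LG/J libraries, where 14.6% of all genes were. Mmp3, the stromelysin, was at 34995 and 27363 CPM there against at most 1037 CPM, and Adamts5 at 346 and 391 CPM against at most 33.1 CPM.

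Some markers of other cell types were also lower in LG/J. The shares over all genes beside the counts of markers are again 15.1% lower and 17.1% higher. Of 10 tested macrophage markers 2 were lower in LG/J, Fcgr1 at -2.74 ± 0.73 and Lyz2 at -1.57 ± 0.50 (adjusted p = 0.00443 and 0.0165), with a list median of -1.22, and the summed level of the list was 29.6 to 1664 CPM in LG/J and 80.0 to 1063 CPM in SM/J. Of 6 tested neutrophil markers 4 were lower (list median -2.52), each under 10 CPM in every one of the 30 libraries. After leaving out the 6 libraries 7 of 9 were lower (median -2.82), where 10.8% of all genes were. The sum of the list was 1.72 to 46.0 CPM in LG/J and 2.51 to 33.7 CPM in SM/J. None of the tested lymphocyte (2) and endothelial (4) markers was called. Of 8 fibroblast markers 1 was higher and 1 lower, and of 6 osteoblast markers 2 were higher. Of the 13 chondrocyte markers 10 were higher in LG/J and none lower, among them Acan at 1.12 ± 0.18 (adjusted p = 1.59e-05). The part of these cells in the strain difference was not tested.

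In LG/J female 1 and male 1 the macrophage sum was 167 and 169 CPM, within the range of the other LG/J libraries, and Cd68 made up 148 and 151 of it. Adgre1 and Csf1r, which define macrophages, were at 0.246 and 0.378 CPM and at 0.861 and 0.882 CPM, and C1qb was at 0 in both. Of the neutrophil markers S100a8 was at 91.4 and 30.4 CPM and Camp at 26.2 and 18.0 CPM, while S100a9 was at 0.123 and 0 and Ly6g at 0.123 and 0.126 CPM. Of 9 genes of handling stress, 6 were above all 14 other LG/J libraries in both, where 14.6% of all genes were, with sums of 180 and 174 CPM against 60.1 to 109 CPM. The part of handling in these levels was not tested.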

How the data were processed

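Chondrocyte RNA from 32 libraries (SMARTer kit, per the labels) was mapped with STAR 2.0.4b on GRCm38, and featureCounts 1.45 of Subread gave the counts, per the submitters' processing notes. The sources used here give neither the annotation release nor the strand setting. The authors deposited whole-number read counts for 41388 Ensembl genes per library, and only these counts were used. Symbols were found for 40254 IDs, and the other 1134 held 0.109% of counts. Groups came from strain and sex in the sample titles.

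Without LG/J female 1 and male 1, counts of 30 libraries were filtered with filterByExpr, TMM-scaled and fitted with edgeR 4.0.16 in R 4.3.3 (quasi-likelihood, robust, 1 mean per group). Benjamini-Hochberg adjustment ran over all 16229 genes kept, and genes were called at 0.05. Errors of fold changes are standard errors. The group mean used a prior count of 2. The fit was tested on simulated data of independent libraries. These held no close pairs and no transcripts of both sexes, so that test does not cover such libraries. Total counts of 15840330 to 25571598 limit genes of a few reads, and a count of 0 allows up to 3; such limits cover counting error only. Alternatives were other scalings and filters, DESeq2 1.42.0, limma 3.58.1 (voom), all 32 libraries, summed close pairs, 6 libraries left out, the library number as a block and leaving out each library.

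The 39 genes and the gene lists were chosen with earlier results of these data known. The named genes of the wider lists are up to 4 called per list with the smallest p and any gene at 10 times the highest of the other LG/J libraries in both LG/J number 1 libraries, and marker genes that define a cell type are given whatever their result; other names were chosen after their values were seen. Library numbers were not taken as pairs.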

Additional observations from a re-analysis of the deposited data

Results flagged for a closer look

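Over 151 comparisons, on a log scale, of the highest or lowest library with the rest of its group, 5 values stood far from the others. Chance gives about 1 in 20 where comparisons are independent. These share the same libraries, and 3 of the 5 values came from LG/J female 3, so the count does not decide whether chance suffices. Among the 7 LG/J females left without number 1, female 3 was far above the rest in Il11 (8.56 CPM, others 0.614 to 1.37), Ccl2 (27.5 CPM, others 2.57 to 6.64) and Tnfaip6 (11.6 CPM, others 3.51 to 5.23). LG/J female 2 was far below the rest in Icam1 (10.8 CPM, others 44.8 to 102). SM/J female 1 was far above the rest in Lcn2 (2023 CPM, others 233 to 527).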

How the results depend on the processing

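Of 304 values of single genes under alternatives that keep LG/J female 1 and male 1 out, 254 kept direction and side of the threshold, 34 lost the call, 8 gained one and 8 changed sign; 12 of the 18 strain calls held in every fit that left out 1 library. Members called between strains numbered 8 with all 32 libraries, 8 after leaving out the 6 libraries that held transcripts of both sexes, and 11 with close pairs summed (12 to 21 leaving out 1 library). In females they numbered 9 with DESeq2, 4 with all 32 libraries and 1 with close pairs summed (1 to 9). Over all genes tested in females, 2969 of 16229, 2156 of 16136 and 1709 of 16539 were called in these settings. Members called in males numbered 8 with DESeq2, 2 with all 32 libraries and 2 without the 6 libraries (2 to 8). Over all genes tested in males, 4398 of 16229, 3600 of 16136 and 3899 of 16536 were called in these settings. Sex calls among the members numbered 1 without a filter, 6 with DESeq2, 1 with voom, 0 with all 32 libraries, 1 without the 6 libraries and 0 with close pairs summed (1 to 4), and over all genes 432, 1575, 1856 and 558 for the first 4 of these and 28 with close pairs summed (462 to 1445). Genes whose strain difference differed between sexes numbered 0 with library size only, 0 without a filter, 2 with a stricter filter, 133 with DESeq2, 249 with voom, 0 without the 6 libraries and 0 with close pairs summed (0 to 135).

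Library numbers are in the labels and were not taken as pairs, though libraries of the same number were alike in part. Same-number pairs correlated from -0.594 to 0.738 (median 0.242, 30 of 43 over 0.1), and 10 of 30 libraries matched their own number best. Each of the 6 close pairs held consecutive numbers. What the number stands for was not tested. With the number as a replicate block, 16 members were called between strains, where 5884 of all 16229 genes were. These held 14 of the 18, without Cxcl2 (-0.88), Cxcl5 (-1.32), Ccl2 (-0.98) and Saa3 (-1.66). Gained were Il1rn (-1.59) and Ptges (-0.63). In females 6 members and 2777 genes in all were called, and between sexes 1 member and 1464 genes in all.

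Signs turned with voom for Il6 (0.30) and Cxcl12 (0.32), with the block for Cxcl12 (0.34), and without the 6 libraries for Il11 (0.036), Lif (0.50), Ccl20 (1.39), Tnfaip6 (0.19) and Vcam1 (0.041); Il6 ran from -0.29 to 0.014 leaving out 1 library. With all 32 libraries log2 fold changes were positive for Il6 (4.05), Lif (1.84), Cxcl1 (3.72), Cxcl2 (4.63), Cxcl3 (6.56), Cxcl5 (4.26), Ccl2 (0.52), Ccl7 (0.15), Ccl20 (1.16), Nos2 (4.86), Ptges (2.72), Saa3 (0.76), Lcn2 (1.78), Chil1 (1.72), Hp (1.56), Tnfaip6 (0.46), Nfkbiz (1.12), Relb (0.072), Vcam1 (0.44), Sod2 (0.059) and Steap4 (0.020); this fit adds the 2 libraries by construction, and for the other alternatives the cause was not tested. Depth limits Il1a, Il1b, Tnf, Csf2 and Csf3.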
